A study of Mus musculus with 6 samples.

Results

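The Sp family of zinc-finger transcription factors was examined in mouse embryonic stem (ES) cells in which 1 of its members, Sp5, had been switched on. The members were the 9 genes Sp1 to Sp9, taken by name, and each had 1 row of its own among the 36699 gene rows of the table. The cells, A2Lox.cre ES cells, hold a chromosomal site for transgenes that doxycycline induces, and were grown on feeder fibroblasts and then cultured for 3 days as embryoid bodies, aggregates in which ES cells differentiate. In the plus dox group (3 libraries) Flag-tagged Sp5 was induced with doxycycline for the last 24 hours, and the minus dox group (3 libraries) was the same line without the drug. The cells of the minus dox group carry the transgene too, no drug-treated cells lacking it were analysed here, and effects of the drug and of the transgene therefore cannot be told apart. The labels name 1 line and are silent on whether libraries of a group were separate cultures, so the spread behind the p-values may be technical. Expression is given as FPKM, fragments scaled to transcript length and to sequencing depth, with 1 value per group as the authors deposited it, so no error accompanies a group value. No counts are in the table, which leaves the depth unknown, and single libraries were not analysed here.

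Sp proteins share 3 neighbouring C2H2 zinc fingers near the carboxyl end, which read GC-rich DNA such as the GC box, and an amino-terminal part that differs between members. Sp1 to Sp4 carry glutamine-rich activation domains and are made in many tissues, while Sp5 to Sp9 are shorter proteins with restricted expression in the embryo. Sp5 is a known direct target of Wnt/beta-catenin signalling in the primitive streak, and Sp5 and Sp8 act together in mouse trunk development.

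Of the 9 members, 8 were tested by the authors and 1, Sp5, rose. This is 12.5% of the tested members, against 23.2% of all 18537 tested rows called in either direction and 10.5% called higher. The called member is the gene that was induced, so this share does not describe the other members. By level, 28.3% of tested rows with 1 FPKM or more in a group and 13.2% of those below it were called in either direction. A call is q under 0.05 in the authors' Cuffdiff test across all tested rows. The other 7 tested members were not called, and none of them had an unadjusted p under 0.05. Sp1 could not be tested. The median log2 fold change of these 7 (plus over minus) was 0.09, against -0.029 over all tested rows with both groups above 0.

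**Figure D1:**
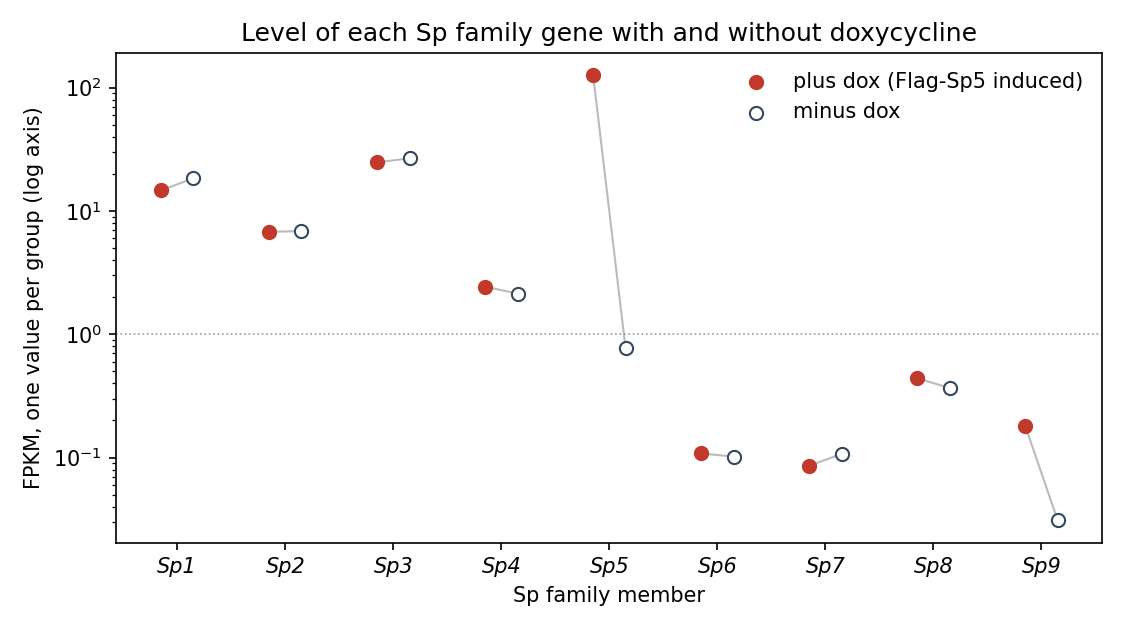
Level of each Sp family gene in FPKM on a log axis, as the authors' single value per group, with filled points for plus dox, open points for minus dox and a dotted line at 1 FPKM. Sp5 stands at 126 FPKM with doxycycline and at 0.769 FPKM without, while Sp1 to Sp4 stand in the same order in both groups and Sp6 to Sp9 stay under 1 FPKM in both groups.

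Sp5, the induced member, stood at 126 FPKM in plus dox cells, against 0.769 FPKM in minus dox cells. The log2 fold change was 7.36 in the authors' deposited table (q printed there as 0), with a standard error of 0.15 implied by the deposited test statistic. The 95% interval ran from 135-fold to 201-fold around the observed 164-fold. Sp5 had both the largest log2 fold change and the largest test statistic among 17927 tested single-gene rows with both groups above 0. With doxycycline its level lay at the 96.5th percentile of all tested rows, and without it at the 32.9th percentile. In plus dox cells the next genes above it by level were the guanylate kinase gene Guk1 and the G-protein gene Gnas (127 FPKM each), and the next below were the actin-nucleating complex gene Arpc2 and Thyn1 (126 FPKM each). The row covers chromosome 2, positions 70312980 to 70315786 of mm9, in which transgene and endogenous transcripts are counted together.

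The coding sequences of Sp5 and Sp9 hold an identical run of 78 bases, the longest between any pair of members in the GENCODE vM21 transcripts. It is printed because reads that fall within it cannot be assigned to either gene by sequence:
Sp5 and Sp9: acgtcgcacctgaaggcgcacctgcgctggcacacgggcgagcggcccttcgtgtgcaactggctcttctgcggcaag
Between Sp8 and Sp9 the longest identical run was 44 bases and between Sp5 and Sp8 it was 26 bases. Of all stretches of 50 bases in Sp9 transcripts, 0.881% also occurred in another member, against 2.15% of those in the Sp5 transcript and none in the other 7 members. At 36 bases Sp8 shared a few stretches too (0.197%). Reads of Sp1, Sp2, Sp3, Sp4, Sp6 and Sp7 could therefore be told apart from those of other members at either length, although the read length is not given in the sources used here.

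Sp1 to Sp4, the broadly expressed members, summed to 48.7 FPKM in plus dox cells and to 54.1 FPKM in minus dox cells, where the whole family summed to 55.5 FPKM. Sp3, which can activate or repress from GC boxes, was the highest of them at 24.8 FPKM in plus dox cells and 26.7 FPKM in minus dox cells. The difference was not called in the authors' deposited table (log2 fold change -0.11, q = 0.34), and its 95% interval ran from 0.843-fold to 1.02-fold. A change of 1.13-fold in either direction would have been enough for a call at the error of Sp3, where the threshold corresponded to a test statistic of 2.52.

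Sp1, the founding member and an activator of many GC-box promoters, was listed at 14.7 FPKM in plus dox cells and 18.4 FPKM in minus dox cells. The ratio of these values is 0.8. Cuffdiff gave the row the status FAIL, so there is neither a p-value nor an error for it, and the difference was not tested. The same status was given to 431 rows, of which 297 had 1 FPKM or more in a group.

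Sp2, a divergent member with its own binding preference, stood at 6.77 FPKM in plus dox cells and 6.87 FPKM in minus dox cells. It was not called in the authors' deposited table (q = 0.968), with an interval from 0.835-fold to 1.16-fold. Sp4, best known from neurons, stood at 2.43 FPKM in plus dox cells and 2.14 FPKM in minus dox cells. It had the smallest unadjusted p of the members other than Sp5 (p = 0.0561, q = 0.176 in the authors' deposited table), and its interval ran from 0.997-fold to 1.29-fold. Over Sp2, Sp3 and Sp4 the bounds of the intervals lay between 0.835-fold and 1.29-fold.

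**Figure D2:**
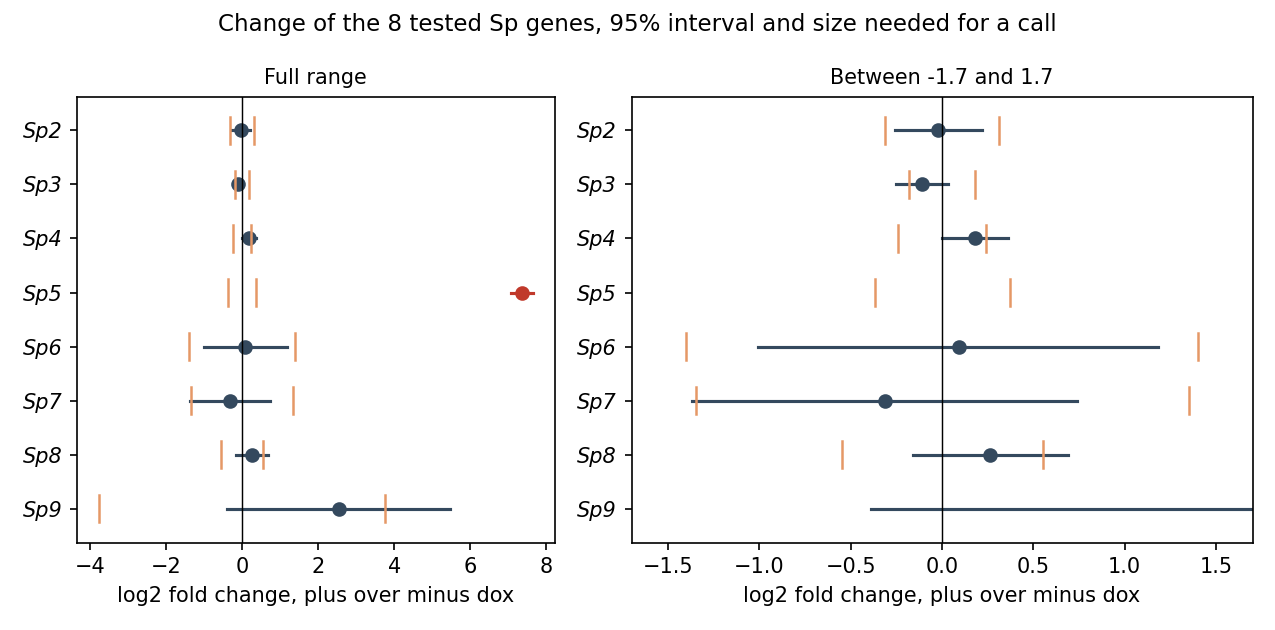
Log2 fold change (plus over minus dox) of the 8 tested Sp genes as points, with the 95% interval implied by the authors' test statistic as a line and the size needed for a call as short upright bars. The left panel shows the full range and the right panel the part between -1.7 and 1.7, where Sp5 lies outside and the line of Sp9 is cut off. The interval of Sp5 (7.07 to 7.65) lies far from 0, and those of the other 7 include 0.

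Sp6 to Sp9, the members known from restricted embryonic tissues, stayed under 1 FPKM in both groups. Sp8, a regulator of limb outgrowth, forebrain patterning and, with Sp5, of neuromesodermal progenitors, stood at 0.44 FPKM in plus dox cells and 0.367 FPKM in minus dox cells (q = 0.476 in the authors' deposited table). Its interval of 0.894-fold to 1.61-fold was the narrowest of these genes. Sp6, which acts in tooth and limb ectoderm, stood at 0.108 FPKM in plus dox cells and 0.102 FPKM in minus dox cells (q = 0.971 in the authors' deposited table). Sp7 (osterix), the bone-forming cell factor, stood at 0.086 FPKM in plus dox cells and 0.107 FPKM in minus dox cells (q = 0.804 in the authors' deposited table). The intervals of Sp6 (0.498-fold to 2.26-fold) and Sp7 (0.388-fold to 1.67-fold) were wide, and only changes of at least 2.65-fold and 2.56-fold would have been called.

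Sp9, the closest relative of Sp8 and a factor of limb ridge and striatal neurons, was listed at 0.181 FPKM in plus dox cells, against 0.031 FPKM in minus dox cells. This was the largest ratio after that of Sp5 (5.83-fold), but it was not called (p = 0.0888, q = 0.248 in the authors' deposited table). Its interval ran from 0.765-fold to 44.4-fold, and a change of 13.6-fold would have been needed for a call. Sp5, with which Sp9 shares the run printed above, was 699-fold more abundant than Sp9 in plus dox cells and 24.8-fold in minus dox cells on the FPKM scale. The part of the shared run in the Sp9 value was not tested, nor was that of Scrn3 and Cir1, genes in the same locus.

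The order of levels differed between the groups in the place of Sp5 and among the lowest members. In plus dox cells it ran Sp5, Sp3, Sp1, Sp2, Sp4, Sp8, Sp9, Sp6 and Sp7, and in minus dox cells Sp3, Sp1, Sp2, Sp4, Sp5, Sp8, Sp7, Sp6 and Sp9. Group values carry no error, so whether neighbours in this order differ cannot be tested here. FPKM are scaled to length, which allows members to be set beside each other within a group. For Sp5 in plus dox cells this comparison is limited, because the length of the transgene transcript is not given. Sp5 stood 5.09-fold above Sp3 and 8.6-fold above Sp1 in plus dox cells, whereas in minus dox cells Sp3 stood 34.8-fold and Sp1 23.9-fold above Sp5.

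The summed level of the family was 176 FPKM in plus dox cells and 55.5 FPKM in minus dox cells, a ratio of 3.17. Sp5 made up 71.8% of the sum with doxycycline and 1.39% without it. Without Sp5 the sum was 49.5 FPKM in plus dox cells and 54.7 FPKM in minus dox cells, a ratio of 0.905, and without Sp5 and the untested Sp1 the ratio was 0.959. Among the members other than Sp5, Sp3 made up 50.1% with doxycycline and 48.8% without it, and Sp1 29.7% with doxycycline and 33.6% without it. In bulk RNA of this kind, a change in the number of cells that express a gene and a change in RNA per cell cannot be told apart. The transcript length by which the transgene should be scaled is not given in the sources used here.

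**Figure D3:**
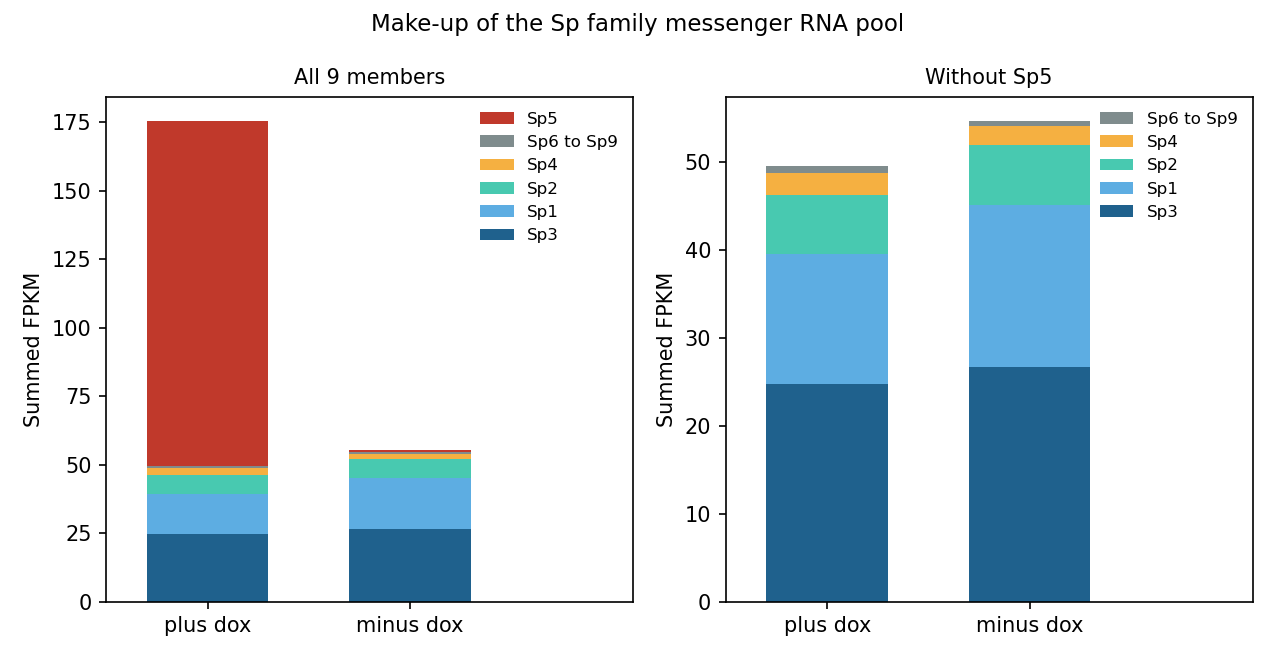
Summed FPKM of the Sp family in plus dox and minus dox cells, as stacked bars from 0, for all 9 members on the left and without Sp5 on the right. With doxycycline Sp5 takes 71.8% of 176 FPKM, and without Sp5 the bars stand at 49.5 FPKM in plus dox and 54.7 FPKM in minus dox cells.

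Promoter sequences were set beside these values because Sp factors bind GC boxes and Sp5 is a Wnt target. RefSeq promoter windows of GRCm38.p6 (250 bases before to 50 after a start) were matched by symbol for 7 members, with 12 windows in all, the members matched being Sp1, Sp2, Sp3, Sp4, Sp5, Sp8 and Sp9. A GC box, searched as GGGCGG on both strands, occurred in at least 1 window of 6 of the 7, and in 7 of the 12 windows (58.3%). It occurred in 35.7% of all 32851 windows and in 59.1% of the 13548 windows of other tested genes. The share of windows in the Sp genes thus lay near that of tested genes. Counted by gene, 38.2% of all genes had a GC box in a window. Among other tested genes it was 68.4% of those called higher, 74.1% of those called lower and 63.6% of those not called. A Tcf/Lef motif, searched as CTTTGAA or CTTTGAT on both strands, occurred in 3 of the 12 windows (25%), each of a different member, against 8.65% of all windows and 6.07% of those of other tested genes. The matches of the close relatives Sp8 and Sp9 both follow the letters gcggcac, so the 3 may not be independent. The 4 stretches shown hold the bases before a start, were chosen to show members with and without each motif, and overlap no exon of GENCODE vM21. Capitals mark the searched GC boxes and Tcf/Lef motifs, each on either strand:
Sp5, chr2:70474673-70474922, plus strand: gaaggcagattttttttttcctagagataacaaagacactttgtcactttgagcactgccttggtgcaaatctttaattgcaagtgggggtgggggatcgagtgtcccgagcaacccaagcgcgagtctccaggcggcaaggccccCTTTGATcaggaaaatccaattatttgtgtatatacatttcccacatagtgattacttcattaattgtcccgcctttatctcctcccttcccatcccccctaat
Sp8, chr12:118846983-118847232, plus strand: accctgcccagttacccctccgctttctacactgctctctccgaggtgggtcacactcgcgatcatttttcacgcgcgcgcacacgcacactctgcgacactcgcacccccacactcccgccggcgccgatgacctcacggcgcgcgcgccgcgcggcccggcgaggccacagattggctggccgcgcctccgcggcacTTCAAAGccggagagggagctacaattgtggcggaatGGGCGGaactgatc
Sp4, chr12:118301441-118301690, minus strand: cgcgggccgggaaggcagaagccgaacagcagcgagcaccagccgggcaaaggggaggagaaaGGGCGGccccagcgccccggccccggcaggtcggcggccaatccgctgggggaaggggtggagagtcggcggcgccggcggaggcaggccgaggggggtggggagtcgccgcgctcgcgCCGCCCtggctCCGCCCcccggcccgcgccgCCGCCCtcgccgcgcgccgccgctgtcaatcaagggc
Sp3, chr2:72980447-72980696, minus strand: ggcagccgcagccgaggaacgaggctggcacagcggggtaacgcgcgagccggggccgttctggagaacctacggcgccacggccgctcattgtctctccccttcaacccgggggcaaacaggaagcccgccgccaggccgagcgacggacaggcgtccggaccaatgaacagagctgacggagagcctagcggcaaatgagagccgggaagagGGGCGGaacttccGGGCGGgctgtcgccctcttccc
The Sp5 window held no GGGCGG on either strand and 1 Tcf/Lef motif that ends 97 bases before the start, and its GC content was 45.0%, against a median of 52.7% over all windows. Sp8 and Sp9 each held 1 Tcf/Lef motif and 1 GC box in a window, while Sp1, Sp3 and Sp4 held 2 or more GC boxes in each of their windows and no Tcf/Lef motif. The searched GC boxes did not overlap a Tcf/Lef motif in the printed stretches. A match describes letters only, and the absence of one says nothing on binding.

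**Figure D4:**
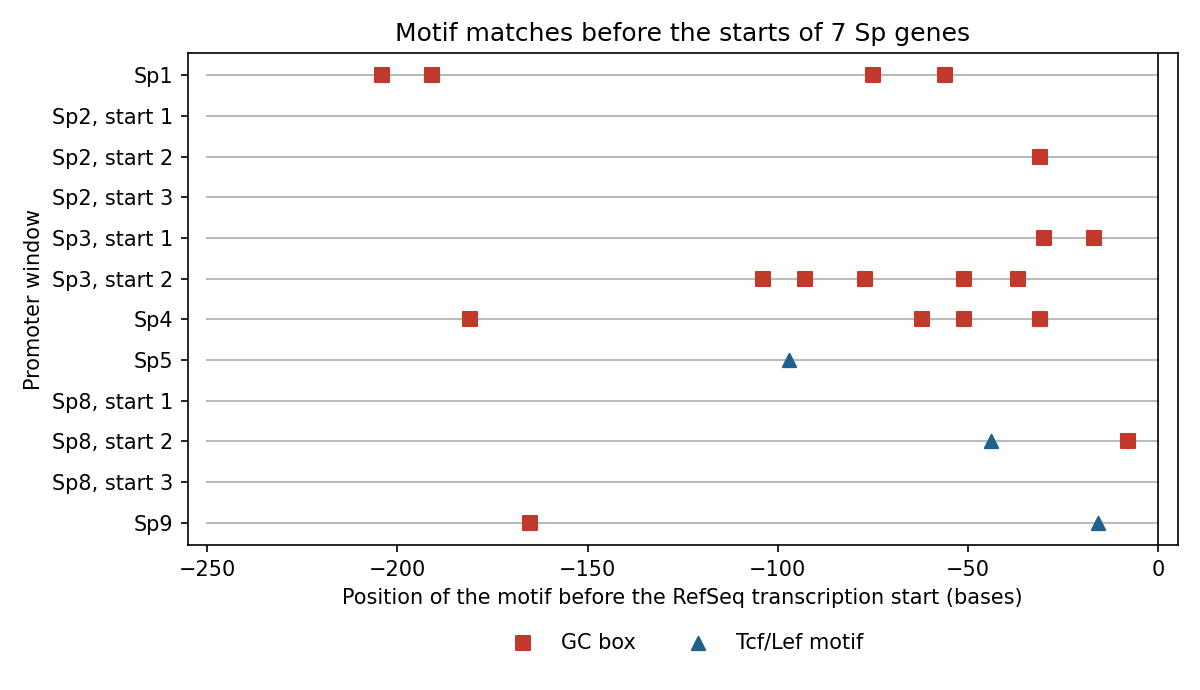
Position of GC boxes (squares) and Tcf/Lef motifs (triangles) in the 250 bases before each RefSeq start of 7 Sp genes, where the x axis gives the distance in bases from the end of the motif to the start. Several starts of 1 gene are numbered in the direction of transcription. GC boxes stand before starts of Sp1, Sp2, Sp3, Sp4, Sp8 and Sp9, and Tcf/Lef motifs before those of Sp5, Sp8 and Sp9.

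Sp genes lie in pairs or groups on their chromosomes. In mm9 the table places Sp1 on chromosome 15 (102236574 to 102266835), Sp2 on chromosome 11 (96768740 to 96844273), Sp3 on chromosome 2 (72774484 to 72826734) and Sp4 on chromosome 12 (119473406 to 119539913). Sp6 lies on chromosome 11 (96874708 to 96887562), Sp7 on chromosome 15 (102187040 to 102197285), Sp8 on chromosome 12 (120084802 to 120091051) and Sp9 on chromosome 2 (73109982 to 73175875). The loci of Sp2 and Sp6 were 30.4 kb apart on chromosome 11, those of Sp7 and Sp1 39.3 kb apart on chromosome 15, those of Sp4 and Sp8 545 kb apart on chromosome 12 and those of Sp3 and Sp9 283 kb apart on chromosome 2. Sp5 lay 2.46 Mb from Sp3 on chromosome 2. The locus given for Sp2 also holds Cdk5rap3 among others, and that of Sp9 holds Scrn3 and Cir1, both far above Sp9 itself. Scrn3 stood at 10 FPKM in plus dox cells and 8.45 FPKM in minus dox cells. Cir1 stood at 11.4 FPKM in plus dox cells and 12.3 FPKM in minus dox cells. The locus of Sp3 also holds AL844840.1 (9.68 FPKM in plus dox cells, 15 FPKM in minus dox cells) and 1700011J10Rik (4.3 FPKM in plus dox cells, 6.32 FPKM in minus dox cells), and that of Sp6 holds Gm11532 (2.45 FPKM in plus dox cells, 2.44 FPKM in minus dox cells), which stood above Sp6 itself. Reads of overlapping genes in these loci may not be separable.

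Beside Sp5, 1 neighbouring row was higher and 1 was lower. Gad1, the gene of a GABA-synthesizing enzyme, rose to 0.553 FPKM in plus dox cells, against 0.0988 FPKM in minus dox cells (5.6-fold, q = 1.78e-05 in the authors' deposited table), in a locus 12.2 kb away that it shares with 4933404M02Rik. The ribosomal protein pseudogene Rpl9-ps7, 15.4 kb away on the other side, fell to 4.2 FPKM in plus dox cells, against 10.4 FPKM in minus dox cells, a value that is uncertain because a pseudogene can share reads with its parent gene. Myo3b, at 0.00533 FPKM in plus dox cells and 0.00899 FPKM in minus dox cells, was not tested. Over the neighbours of all members (2 on each side, 30 rows), 14 were tested, 1 was higher and 3 were lower. This is 28.6% of those tested, near the 23.2% of all tested rows. The other two that were lower, picked out once their values were known, were Scrn2 beside Sp6 (9.98 FPKM in plus dox cells, 12.3 FPKM in minus dox cells) and Espl1, the separase gene, beside Sp7 (13.1 FPKM in plus dox cells, 15.7 FPKM in minus dox cells).

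In A2Lox.cre cells the inducible site lies upstream of Hprt on the X chromosome. Hprt, named after its values were seen, rose to 30.5 FPKM in plus dox cells, against 3.24 FPKM in minus dox cells (9.41-fold, with a q of 0 as printed in the authors' deposited table).

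The tested genes with a log2 fold change most like the 7.36 of Sp5, by absolute difference in this 1 comparison of 2 groups, were T (Brachyury, a T-box gene of the early streak) at 7.11, 5730457N03Rik at 6.82 and the homeobox gene Evx1 at 6.25. T stood at 103 FPKM in plus dox cells and at 0.745 FPKM in minus dox cells, both close to the levels of Sp5. The next member, Sp9, had a log2 fold change of 2.54 that was not called.

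Klf factors, relatives of the Sp family that share the zinc-finger domain and bind similar GC-rich sites, were set beside the Sp genes. In the authors' deposited table, 10 of 17 tested Klf genes were called (58.8%), 7 of them higher and 3 lower. This compares with 23.2% of all tested rows and 28.3% of those with 1 FPKM or more in a group. Of the 17 Klf genes, 14 reached that level. A minimum of 2-fold left 2 of the 10 calls, Klf2 and Klf17. Klf2, a factor of naive pluripotency, stood at 20.7 FPKM in plus dox cells and 4.72 FPKM in minus dox cells, and Klf12 at 1.16 FPKM in plus dox cells and 0.803 FPKM in minus dox cells. Klf6, a widely expressed member, fell to 13 FPKM in plus dox cells, against 19.1 FPKM in minus dox cells. Klf16 and Klf17, named after their values were seen, fell too. Klf17 did so under 1 FPKM, at 0.0344 FPKM in plus dox cells and 0.105 FPKM in minus dox cells. The summed level of the 17 Klf genes was 119 FPKM in plus dox cells and 104 FPKM in minus dox cells, a ratio of 1.15. Klf2 alone gave 20.7 FPKM of the sum in plus dox cells and 4.72 FPKM of that in minus dox cells. The difference in the share of called genes between the families was not tested.

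Of the genes of proteins that act with Sp1 and Sp3, 3 of the 21 tested were higher and 4 lower in the authors' deposited table. This is 33.3% called, against 28.3% of all tested rows with 1 FPKM or more, a level that all 21 reached. Their median log2 fold change was -0.06. Taf4a, which encodes the TFIID subunit bound by the glutamine-rich domains of Sp1, fell to 6.45 FPKM in plus dox cells, against 10.9 FPKM in minus dox cells (log2 fold change -0.76). Its paralog Taf4b rose to 6.77 FPKM in plus dox cells, against 5.1 FPKM in minus dox cells, and Ogt, the enzyme that adds O-GlcNAc to Sp1, rose to 43.5 FPKM in plus dox cells, against 33.6 FPKM in minus dox cells. The other called members, named after their values were seen, were Nfya, which rose, and Hcfc1, Ep300 and Taf7, which fell, all by less than 2-fold.

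The GC-box genes studied with Sp1, mostly in human and rodent cell lines, numbered 16 tested, of which 2 rose and 7 fell in the authors' deposited table. These calls make 56.2%, against 28.3% of all tested rows with 1 FPKM or more in a group, a level that 14 of the 16 reached. Cdkn1a, the inhibitor of cyclin-dependent kinases p21, rose to 40.8 FPKM in plus dox cells, against 16.1 FPKM in minus dox cells (log2 fold change 1.34). Igf1r, named after its values were seen, stood at 5.2 FPKM in plus dox cells and 3.53 FPKM in minus dox cells. Maob, a monoamine oxidase gene, fell to 0.465 FPKM in plus dox cells, against 1.08 FPKM in minus dox cells (log2 fold change -1.21), and Cdkn1b, the p27 inhibitor gene, to 15.4 FPKM in plus dox cells, against 24.8 FPKM in minus dox cells. The list's median was -0.24, against -0.029 over all tested rows, where 12.7% of rows were called lower.

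Sp5 and Sp8 act with Tcf/Lef factors at Wnt target genes in mouse embryos. In the authors' deposited table, 2 of the 8 tested genes of Tcf/Lef factors and beta-catenin partners were called (25%), near the 23.2% of all tested rows. Tcf7l1, the member known as a repressor in ES cells, fell to 23.7 FPKM in plus dox cells, against 32.3 FPKM in minus dox cells (log2 fold change -0.45). Pygo1, named after its values were seen, rose to 0.128 FPKM in plus dox cells, against 0.052 FPKM in minus dox cells. Among Wnt target genes, 12 of 15 tested were higher and 1 was lower in that table, with a median log2 fold change of 1.48, where 10.5% of all tested rows were called higher. Of the 12 that were higher, 8 reached 1 FPKM in a group. Beside T, the largest among those with 1 FPKM or more were Cdx2, a caudal homeobox gene (3.85 FPKM in plus dox cells, 0.262 FPKM in minus dox cells), and the receptor gene Tnfrsf19 (7.12 FPKM in plus dox cells, 1.16 FPKM in minus dox cells). The gene that fell, named after its values were seen, was Ccnd1 (30.9 FPKM in plus dox cells, 35.8 FPKM in minus dox cells).

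Genes of the tissues in which Sp6 to Sp9 act were looked at beside them, in lists of at most 8 tested genes to be read against the 23.2% of all tested rows that were called. None of the 6 ameloblast genes (Sp6) was tested, and the highest value among them was 0.0176 FPKM in plus dox cells and 0.0466 FPKM in minus dox cells. Of 7 tested osteoblast genes (Sp7), the authors' deposited table has 2 higher and 2 lower. The collagen gene Col1a1 rose to 4.43 FPKM in plus dox cells, against 1.11 FPKM in minus dox cells, and the phosphatase gene Alpl to 14.9 FPKM in plus dox cells, against 9.83 FPKM in minus dox cells, while Dmp1 and Sost, named after their values were seen, fell at levels under 1 FPKM in both groups. Col1a1 is also in the fibroblast list given below, and Alpl is high in pluripotent cells.

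Limb ridge and midbrain genes (Sp8) had 3 of 8 tested members higher and 1 lower in the authors' deposited table. Fgf17 rose to 17.5 FPKM in plus dox cells, against 0.868 FPKM in minus dox cells, and Fgf8, a growth factor that depends on Sp8 in the limb ridge, to 16.6 FPKM in plus dox cells, against 9.91 FPKM in minus dox cells. The head homeobox gene Otx2 fell to 70 FPKM in plus dox cells, against 112 FPKM in minus dox cells, and En2, named after its values were seen, rose to 0.909 FPKM in plus dox cells, against 0.266 FPKM in minus dox cells. Of 6 tested interneuron and striatal genes (Sp8 and Sp9), Gad1 and Tshz1, the second named after its values were seen, rose and 4 were not called, and no gene of this list reached 1 FPKM.

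**Figure D5:**
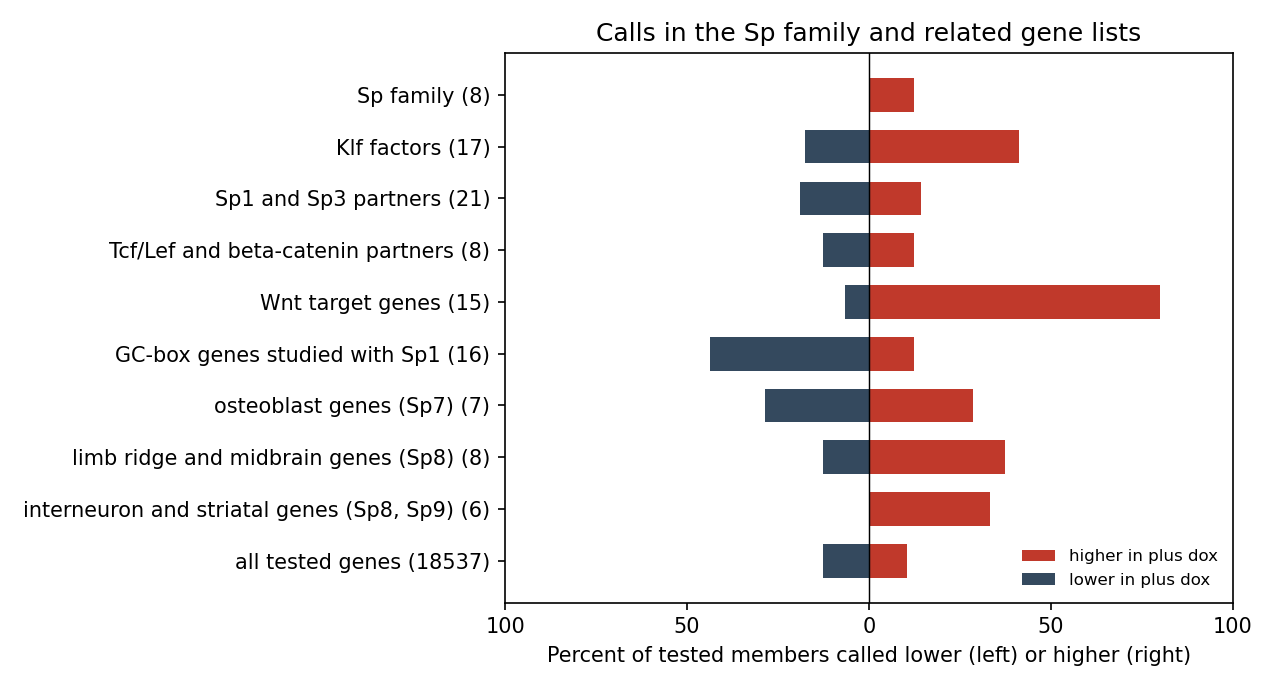
Percent of tested members called higher (right) or lower (left) in plus dox cells, in the Sp family, 8 related gene lists and all tested rows, with the number tested in parentheses. The Sp family shows 12.5% higher, which is the induced Sp5 alone, and none lower. All tested rows show 10.5% higher and 12.7% lower.

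The identity of the cells was checked by marker lists. All 9 pluripotent cell markers lay between 24.9 and 1060 FPKM in plus dox cells and between 21.7 and 999 FPKM in minus dox cells. Their summed level was 1760 FPKM in plus dox cells and 1800 FPKM in minus dox cells, with Pou5f1, not called, the largest part. The authors' deposited table calls 3 of them higher and 3 lower (66.7%). Over all tested rows 23.2% were called, and 28.3% of those with 1 FPKM or more in a group. Among the 3 largest calls, Utf1 fell to 119 FPKM in plus dox cells, against 314 FPKM in minus dox cells. Nanog rose to 117 FPKM against 46 FPKM and Tdgf1 to 180 FPKM against 124 FPKM, in the same order. Embryonic fibroblast markers are relevant because the cells had been grown on feeders. They summed to 28.9 FPKM in plus dox cells and 38 FPKM in minus dox cells. Of 11 tested, 2 rose and 4 fell (54.5% called), and none of the 12 was listed at 0. Primitive and visceral endoderm markers summed to 139 FPKM in plus dox cells and 186 FPKM in minus dox cells. The untested Dab2 was the largest part of both, at 56.6 FPKM in plus dox cells and 85.2 FPKM in minus dox cells. Of 8 tested endoderm markers, 5 fell (62.5%) and none rose. Of 5 neural markers, 2 had a row of their own, Nes and Pax6, and both fell, where 12.7% of all tested rows were called lower. Nes fell to 5.24 FPKM in plus dox cells, against 13.8 FPKM in minus dox cells. Pax6 fell to 0.26 FPKM, against 1.05 FPKM, with a standard error of 0.57 on the log2 scale. With 2 genes no share can be read for neural markers. The part of these differences in the levels of the Sp genes was not tested.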

How the data were processed

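RNA of 6 libraries, 3 per group, was compared. Per the labels' protocols, total RNA was DNase-treated and poly(A) RNA was captured with oligo-dT beads for a TruSeq library, with no strand-marking step mentioned. The submitters' processing notes list Cufflinks 2.0.2, Cuffdiff, TopHat2 2.0.8, Picard and Bowtie with build mm9. Annotation, scaling between libraries and filters were not given in the sources used here. The authors deposited 1 FPKM value per group and gene, with log2 fold changes, a test statistic (a score), p-values and q-values of their Cuffdiff test, per the file headers. Rows with status OK (18537) count as tested.

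The deposited p-values equalled the normal two-sided p of the deposited statistic to within 2.84e-06 wherever both groups were above 0 (18284 tested rows), so the standard error was taken as log2 fold change over statistic and 95% intervals were formed from it. The calculation was run on data simulated under the same normal law, so that run cannot show whether the law holds for these data. The intervals rest on the authors' error model. Locus starts were read as 0-based and are printed from 1. Folds use no pseudocount. Values were computed with scipy 1.17.1, pandas 2.3.3 and numpy 2.4.6 in Python 3.11.15.

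The members and gene lists were chosen with earlier results of these data known. Named were all members, the neighbours of called members, the 3 genes nearest to Sp5 in log2 fold change, those next to it in level, and in each list the 3 largest calls with 1 FPKM or more. Sequences are RefSeq promoters (GRCm38.p6) and GENCODE vM21 transcripts, and no coordinates were passed between builds. Protein sequences were not used here, and 1 gene of the list of Sp1 and Sp3 partners is not reported here and is left out of its counts.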

Additional observations from a re-analysis of the deposited data

How the results depend on the processing

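Sp5 alone was called among the members with q under 0.01, with a minimum of 2-fold, with Bonferroni adjustment and with adjustment over rows of 1 FPKM or more, although calls over all rows numbered 4306 in the authors' test, 1068 with the 2-fold minimum and 1664 with Bonferroni adjustment. The log2 fold change of Sp5 was 6.17 with a pseudocount of 1 FPKM and 7.18 with 0.1 FPKM, both by construction smaller, and 7.40 and 7.42 under 2 rescalings of the plus group. That of Sp9 was 0.20 with a pseudocount of 1 FPKM and 1.10 with 0.1 FPKM, and that of Sp2, not called, was 0.02 and 0.04 in place of -0.02 under the rescalings. The summed family ratio of 3.17 became 0.905 without Sp5 and 0.959 without Sp5 and Sp1, the second chosen after seeing the data. The share of promoters with a GC box was 11.4% for GGGGCGGGG in place of 35.7%. Over the 9 gene lists other than markers, 51 calls became 21 with the 2-fold minimum and 41 with q under 0.01.

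No paired analysis was possible because the table holds 1 value per group, and for the same reason no library was left out. Sp6, Sp7 and Sp9 have wide intervals, with changes under 2.65-fold, 2.56-fold and 13.6-fold not detectable in either direction, and Sp1 has no test.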

Other observations

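GC boxes were also counted in the promoter windows of the genes that were called, with the Sp genes left out. Among genes with 1 FPKM or more in a group, a GC box (GGGCGG) occurred in a window of 72.2% of the 932 that rose, 75.6% of the 1420 that fell and 70% of the 5629 that were not called. The longer box GGGGCGGGG occurred in 25.6% of those that rose, 32.1% of those that fell and 24.9% of those not called. Median GC content was 63.7% for those that rose, 63.7% for those that fell and 62.0% for those not called. A Tcf/Lef motif occurred in a window of 7.3% of those that rose, 6.13% of those that fell and 6.89% of those not called. Among the 178 genes that rose at least 2-fold, 64.6% held a GC box and 10.1% a Tcf/Lef motif. Among the 149 that fell at least 2-fold, 72.5% held a GC box and 4.03% a Tcf/Lef motif. These shares are descriptions with no test, and a gene with several starts had more windows in which a motif could occur. Shares were also taken over genes with 1 window and 1 FPKM or more in a group. A GC box then occurred in 70.4% of those that rose, 73.3% of those that fell and 67.5% of those not called. The longer box occurred in 22.8%, 29.3% and 22.6% of them, in the same order.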
